A study of Mus musculus with 6 samples.

Results

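Genes of the cell cycle and of DNA replication were examined in sorted cDC1s, the conventional dendritic cells that specialise in taking up dead cells and showing their antigens to CD8+ T cells. The 41 genes were chosen by name, from 32285 features in the count table, through the GENCODE M21 symbols of their Ensembl identifiers. They comprise 17 genes of S phase, 22 genes of mitosis and the Cdc14 phosphatases Cdc14a and Cdc14b; the rule names genes and uses no threshold on a measured value, but the names were put together with earlier results of these data known. The libraries came from C57BL/6 mice, 3 wild type (WT 1 to 3) and 3 with the genotype Vps33BdeltaDC, a conditional knockout of Vps33b (KO 1 to 3), a gene for a membrane-tethering protein of late endosomes and lysosomes. All mice, controls included, had received 50 µg HDM through the nose, and mLN cDC1s were sorted 24 h later; no untreated group was analysed here. The Cre driver, the deleted exons, the sex and age of the mice, any Cre or floxed allele in the WT mice and the number of mice behind a library were not given in the sources used here. The p-values therefore measure the spread between these libraries, which may be technical.

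A cell enters the cycle when cyclin-dependent kinases release E2F factors, which switch on the genes for DNA synthesis. The MCM helicase is loaded onto origins with the help of Cdc6, and after replication Cdk1 with its A- and B-type cyclins drives the cell into mitosis, where the checkpoint kinases Bub1 and BubR1 hold back the anaphase-promoting complex until the chromosomes are attached. Dendritic cells arise from dividing precursors, and part of the resident cDC pool of lymphoid organs still divides, whereas mature dendritic cells that have migrated to a lymph node have largely left the cycle. In bulk RNA of sorted cells, fewer dividing cells and less RNA per cell cannot be told apart.

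Library totals ranged from 11755944 to 18450678 counts, and levels are given in CPM, counts scaled to library size with TMM normalization. Vps33b itself was at 13.8 to 19.1 CPM in WT and 5.0 to 8.29 CPM in KO, or 41.3% of the WT mean, so the groups did not overlap. The 12 cDC1 markers were all detected and summed to between 3980 and 4440 CPM, most of it from Irf8, Id2 and Flt3. Of these 12, 9 had log2 fold changes below 0 (median -0.29), beside 6208 of all 12568 genes tested. Xcr1, Wdfy4 and Clec9a were lower at an unadjusted p under 0.05 (edgeR), against 3.06% of all genes tested. None passed the adjusted threshold. The 12 markers of mature migratory dendritic cells, such as Ccr7, summed to 22300, 21500 and 21500 CPM in WT. In KO they summed to 22300, 24600 and 27300 CPM. Their log2 fold changes were above 0 for 10, beside 6360 of all 12568 genes tested. By that unadjusted p 2 (Cd80 and Socs2) were higher, against 2.71% of all genes tested, and 0 passed the adjusted threshold. The summed level of 5 markers of resident cDC1s (Cd8a, Xcr1, Tlr11, Sept3 and Clec9a) was 160, 314 and 170 CPM in WT 1, 2 and 3 and 114, 126 and 145 CPM in KO 1, 2 and 3. The sum of every KO library lay under the lowest WT sum. Of the single markers, Xcr1 and Sept3 were lower with no overlap, against 5.19% of all genes tested, while Cd8a, Tlr11 and Clec9a overlapped. All 5 had log2 fold changes below 0 (median -1.04). Of these 5, 4 were lower at an unadjusted p under 0.05 (edgeR), against 3.06% of all genes tested, and 0 passed the adjusted threshold. Xcr1 and Clec9a stand in both this list and the cDC1 list.

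Of the promoters, 5 are printed as examples from mitotic genes, helicase genes and Tk1, and not all of them hold the motifs known for their class. S phase promoters are known for E2F sites, and promoters of mitotic genes for the cell cycle genes homology region (CHR) together with CCAAT boxes, which NF-Y binds. Each sequence is the stretch before the RefSeq start site on GRCm38.p6, written 5′ to 3′ on the gene's strand, with motif matches in capitals. Mki67 (chr7:135716380-135716629, minus strand) and Ccnb2 (chr9:70421555-70421804, minus strand) are mitotic genes with CHR and CCAAT matches. Mcm6 (chr1:128359706-128359955, minus strand) and Mcm3 (chr1:20820313-20820562, minus strand) are helicase genes, the first with E2F matches, of which a pair overlap, and both with CCAAT matches. Tk1 (chr11:117826093-117826264, minus strand) is shown for the 172 bases that lie outside annotated exons, and no match was found in its whole window.
Mki67: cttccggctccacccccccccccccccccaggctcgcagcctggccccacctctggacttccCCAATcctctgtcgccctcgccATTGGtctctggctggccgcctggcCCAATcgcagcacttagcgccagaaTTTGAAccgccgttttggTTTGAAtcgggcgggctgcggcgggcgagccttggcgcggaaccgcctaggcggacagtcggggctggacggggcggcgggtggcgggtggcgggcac
Ccnb2: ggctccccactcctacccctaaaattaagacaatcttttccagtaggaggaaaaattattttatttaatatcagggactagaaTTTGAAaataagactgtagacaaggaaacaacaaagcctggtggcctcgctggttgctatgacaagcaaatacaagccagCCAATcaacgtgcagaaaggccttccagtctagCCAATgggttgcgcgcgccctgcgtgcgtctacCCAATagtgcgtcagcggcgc
Mcm6: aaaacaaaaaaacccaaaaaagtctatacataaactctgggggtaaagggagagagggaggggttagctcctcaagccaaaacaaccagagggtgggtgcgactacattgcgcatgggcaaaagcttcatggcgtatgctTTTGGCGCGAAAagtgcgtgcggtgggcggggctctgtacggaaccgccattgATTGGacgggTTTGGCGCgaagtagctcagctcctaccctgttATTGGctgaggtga
Mcm3: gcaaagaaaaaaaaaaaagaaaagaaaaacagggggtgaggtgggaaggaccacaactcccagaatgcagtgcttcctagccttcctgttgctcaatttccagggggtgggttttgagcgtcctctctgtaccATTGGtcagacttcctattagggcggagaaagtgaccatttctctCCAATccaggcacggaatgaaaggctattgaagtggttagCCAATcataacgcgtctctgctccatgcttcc
Tk1: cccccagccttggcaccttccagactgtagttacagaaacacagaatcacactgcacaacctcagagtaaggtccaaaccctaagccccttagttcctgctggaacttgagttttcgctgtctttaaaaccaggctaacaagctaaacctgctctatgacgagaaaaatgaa
RefSeq promoter windows were found for 34 of the 41 genes, in 39 windows, and were searched over 250 bases on both strands. The E2F site was searched as TTTCCCGC, TTTGGCGC, TTTCGCGC and TTTGCCGC, the CHR as TTTGAA and TTCGAA, and the CCAAT box as CCAAT. An E2F match stood in 5 of 17 S phase windows (29.4%) and 1 of 17 mitotic windows (5.88%), against 1.86% of all 32851 promoter windows. A CHR match stood in 3 S phase windows (17.6%) and 8 mitotic windows (47.1%), against 17.1% of all windows, and a CCAAT match in 12 (70.6%) and 15 (88.2%), against 33.8%. Of the 5 Cdc14 windows none held an E2F match, 2 held a CHR match and 2 held a CCAAT match. A match describes letters in a window and is no evidence of binding.

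No gene of the set passed the test between genotypes. With edgeR's quasi-likelihood test and Benjamini-Hochberg adjustment, 0 of the 40 genes tested passed an adjusted p of 0.05, as did 0 of all 12568 genes tested (0%); Hmmr had too few counts to be tested. At an unadjusted p under 0.05, 2 of the 40 were lower in KO (Tk1 and Mki67), against 3.06% of all genes tested, and 1 was higher (Cdc14b), against 2.71%. DESeq2 called 2 of the set, Cdc14b and Tk1, among 10 of the 12553 genes to which it gave an adjusted p (0.0797%). All 3 KO values lay below all 3 WT values for Tk1 and Mki67, 2 genes of the set, against 5.19% of all genes tested, and above them for Cdc14b and Bub1, also 2, against 5.46%. The median log2 fold change of KO over WT was 0.14 over the 40 genes, with 27 above 0 and 13 below, beside 0.00 over all genes tested.

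**Figure D1:**
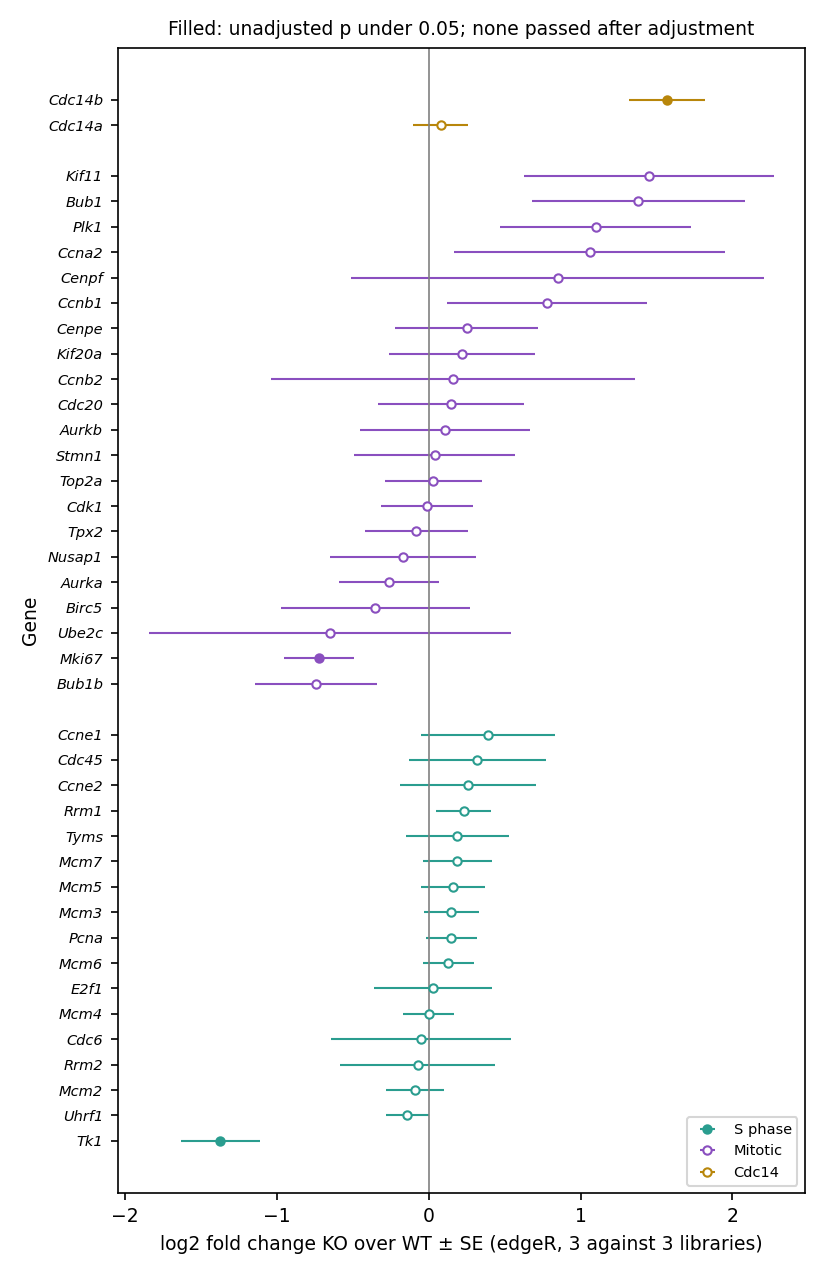
Log2 fold change of KO over WT on the x axis with its SE (edgeR, 3 against 3 libraries) for the 40 genes tested, sorted within S phase, mitotic and Cdc14 genes; filled points have an unadjusted p under 0.05. The filled points are Tk1 at -1.37, Mki67 at -0.72 and Cdc14b at 1.57, and mitotic genes have wider bars than S phase genes.

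Among the enzymes that supply deoxynucleotides, Tk1 stood apart. Tk1 (ENSMUSG00000025574, chr11:117815526-117826092, minus strand), the cytosolic thymidine kinase that salvages thymidine in dividing cells, was at 13.3, 18.3 and 16.1 CPM in WT 1, 2 and 3 and at 6.37, 5.49 and 6.61 CPM in KO 1, 2 and 3. Every KO library lay under every WT library, and the values rest on 242, 270 and 305 counts in WT and 88, 94 and 75 counts in KO. The means were 15.9 ± 2.49 and 6.16 ± 0.592 CPM (SD, n = 3 each), a log2 fold change of -1.37 ± 0.26 (SE) with an edgeR adjusted p of 0.681. DESeq2 gave Tk1 an adjusted p of 0.00535. Leaving out each library in turn gave log2 fold changes from -1.49 to -1.28 with edgeR and no adjusted p under 0.131. An antisense-strand exon of Afmid overlaps 1.6% of the exonic bases of Tk1, and the strand setting of the counts was not given in the sources used here.

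The groups overlapped for the other enzymes of nucleotide supply in the set. Rrm1, the large subunit of ribonucleotide reductase, was at 29.7, 25.6 and 35.7 CPM in WT and 32.2, 40.1 and 34.8 CPM in KO, with a fitted log2 fold change of 0.23 ± 0.18 (SE). Rrm2, the small subunit that is made in S phase, was far lower, at 1.70, 4.13 and 2.22 CPM in WT and 1.74, 3.45 and 1.94 CPM in KO, with overlapping groups and WT 2 and KO 2 highest. Per kb of exon the subunits stood at 3.00 and 0.913 CPM, a difference in level between genes, and the ranges over the 6 libraries (2.32 to 3.64 and 0.615 to 1.49) did not overlap. Tyms, which makes thymidylate from scratch, averaged 5.32 ± 0.437 CPM (WT) and 6.07 ± 2.01 CPM (KO) (SD, n = 3 each), with a log2 fold change of 0.19 ± 0.34 (SE). In a wider list of 20 nucleotide genes, 19 were tested and none passed the adjusted threshold; the median log2 fold change was 0.10. At an unadjusted p under 0.05, 0 of them were lower (3.06% of all genes tested) and 2 higher (2.71% of all genes tested), Nme1 at 8.43 ± 0.695 CPM (WT) and 13.8 ± 2.67 CPM (KO), and Nme2 at 30.7 ± 6.61 and 46.7 ± 15.6 CPM (SD, n = 3 each). Both encode nucleoside diphosphate kinases and are close paralogs, so the split of reads between them is uncertain.

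**Figure D2:**
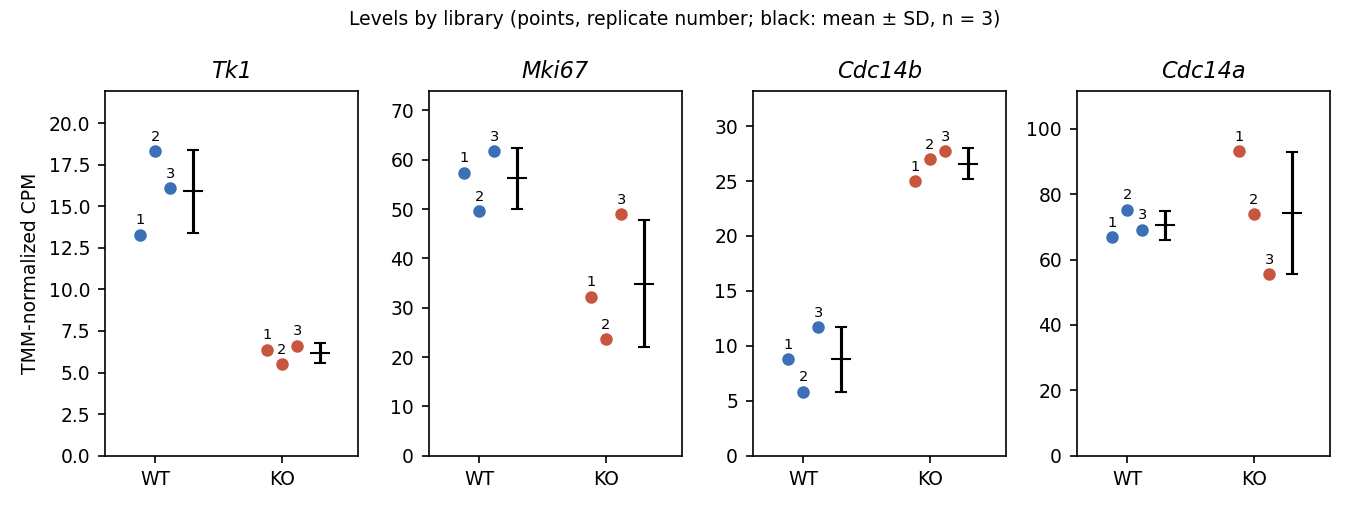
TMM-normalized CPM of Tk1, Mki67, Cdc14b and Cdc14a in each library (points with the replicate number) with the mean and SD of each group in black, on y axes that start at 0. The WT and KO points do not overlap for Tk1, Mki67 and Cdc14b and do for Cdc14a.

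The 6 subunits of the MCM2-7 helicase were detected in every library and differed little between genotypes. Their log2 fold changes ranged from -0.09 to 0.19 with SEs of 0.17 to 0.23, and none passed the test. Mcm3 was at 58.1, 37.5 and 59.7 CPM in WT and 56.6, 55.8 and 61.3 CPM in KO, so that WT 2 alone stood low. Mcm6 was at 53.5, 44.5 and 37.2 CPM in WT and 46.4, 48.7 and 53.5 CPM in KO. Mcm4 was at 44.7, 33.7 and 38.1 CPM in WT and 38.1, 44.3 and 34.0 CPM in KO, with a fitted log2 fold change of 0.00 ± 0.17 (SE). For Mcm3, Mcm6 and Mcm4 the groups overlapped, as they did for the remaining subunits. Mcm2 was at 34.8, 22.8 and 29.2 CPM in WT and 27.7, 25.8 and 29.0 CPM in KO. Mcm5 was at 32.3, 20.1 and 23.8 CPM in WT and 24.4, 31.9 and 29.3 CPM in KO. Mcm7 was at 26.9, 18.2 and 16.7 CPM in WT and 22.7, 21.3 and 27.1 CPM in KO. The summed level of the 6 subunits was 250, 177 and 205 CPM in WT 1, 2 and 3. In KO 1, 2 and 3 it was 216, 228 and 234 CPM. WT 2 was the lowest library for 4 of the 6, against 20.0% of all genes tested. Exons of Ap4m1 and Cops6 on the other strand overlap 7.3% and 1.4% of Mcm7.

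The subunits act as 1 ring of 6 different proteins, but their transcripts differed in level. Per kb of exon, Mcm3 stood highest at 14.6 CPM, followed by Mcm4 at 10.8 and Mcm6 at 10.1 CPM, then by Mcm5 at 6.76, Mcm7 at 5.0 and Mcm2 at 4.06 CPM. The ranges of neighbours in this order overlapped throughout: Mcm3 covered 9.99 to 16.3, Mcm4 9.40 to 12.5, Mcm6 7.98 to 11.5, Mcm5 5.03 to 8.09, Mcm7 3.77 to 6.12 and Mcm2 3.28 to 5.01 CPM per kb. Levels per kb use all annotated exon bases of a gene, so they set genes in order only as far as the annotation fits the transcripts made.

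Cdc6 and Cdc45, which load and start the helicase, had lower transcript levels than its subunits. Cdc6, which loads the helicase onto origins, was the lowest S phase gene at 1.37, 3.04 and 1.06 CPM in WT and 1.38, 1.46 and 2.38 CPM in KO. Cdc45, which joins the helicase when origins fire, was at 1.87 to 6.83 CPM over the 6 libraries with a log2 fold change of 0.32 ± 0.45 (SE). Per kb of exon, Cdc6 and Cdc45 stood at 0.341 and 1.27 CPM, with ranges of 0.202 to 0.582 and 0.533 to 1.95 CPM that overlapped, and neither range reached that of Mcm2, the lowest subunit. Pcna, the sliding clamp of the replication fork, was at 61.1, 72.5 and 49.6 CPM in WT and 60.3, 66.3 and 76.4 CPM in KO. Uhrf1, which guides maintenance DNA methylation behind the fork, was the highest S phase gene at 157, 117 and 130 CPM in WT and 124, 115 and 128 CPM in KO, with overlapping groups and a log2 fold change of -0.14 ± 0.14 (SE). Per kb, Uhrf1 and Pcna stood at 30.2 and 26.8 CPM with overlapping ranges, and both ranges lay above that of Mcm3.

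**Figure D3:**
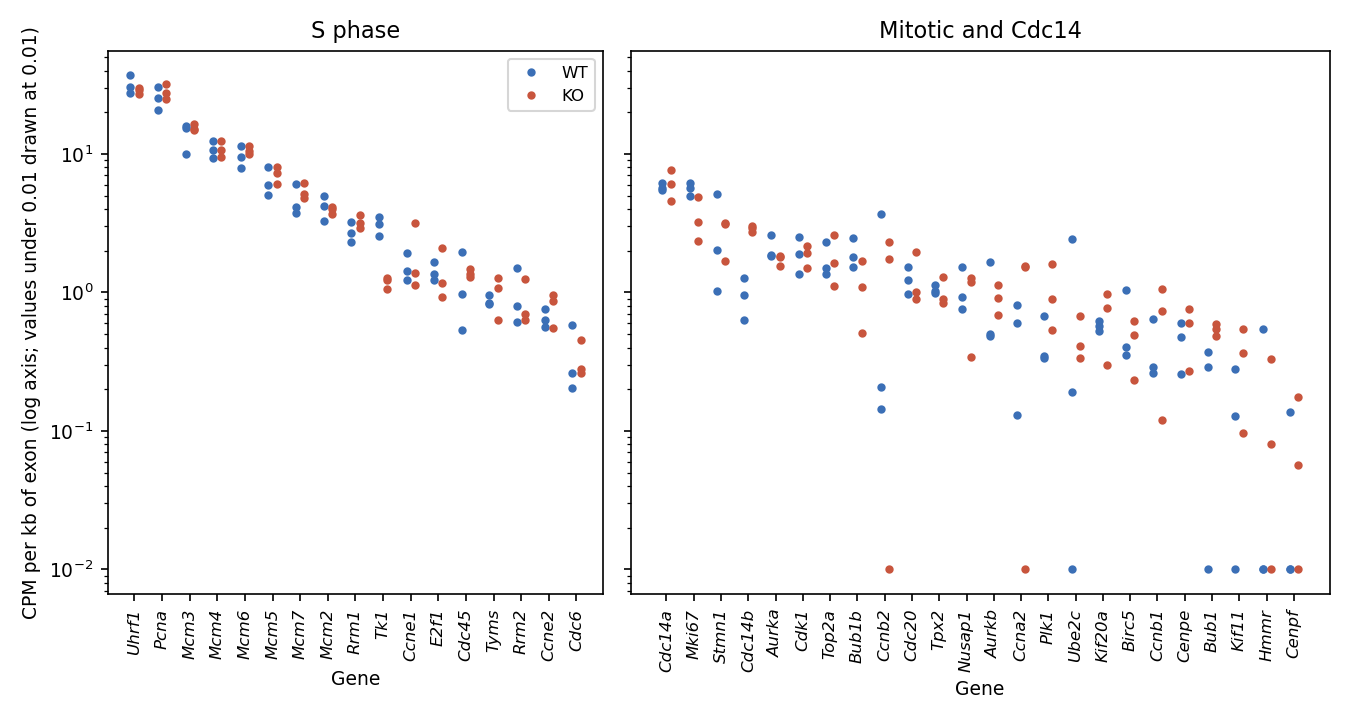
CPM per kb of exon on a log axis for the 17 S phase genes (left) and the 22 mitotic and 2 Cdc14 genes (right), 1 point per library, WT in blue and KO in red, values under 0.01 drawn at 0.01. Uhrf1 and Pcna stand at the top at 30.2 and 26.8 CPM per kb, and the mitotic genes run from Mki67 at 4.53 down to Cenpf at 0.0616 CPM per kb.

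The genes that open S phase were low and did not separate the genotypes. Ccne1, a cyclin E that activates Cdk2, was at 5.17, 3.79 and 3.28 CPM in WT and 3.69, 8.47 and 3.00 CPM in KO, where KO 2 alone stood high. Ccne2, the other cyclin E, was at 2.20, 2.64 and 1.96 CPM in WT and 3.04, 1.93 and 3.35 CPM in KO, and exons of Ints8 on the other strand overlap 17.4% of it. E2f1, an activating E2F factor, was at 2.90 to 6.60 CPM over all 6 libraries with a log2 fold change of 0.03 ± 0.39 (SE). Over the 17 S phase genes the median log2 fold change was 0.15, with 12 above 0 and 5 below, beside 0.00 over all genes tested (6360 above and 6208 below). The median was 0.05 without WT 3, 0.06 without KO 2 and 0.08 without KO 3. The summed level of these genes was 533, 440 and 459 CPM in WT and 460, 488 and 506 CPM in KO, and the groups overlapped.

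Of 50 further replication genes (origin recognition, GINS, polymerases, clamp loader and others), all tested, none reached an unadjusted p under 0.05. Their median log2 fold change was 0.00, with 24 above 0 and 26 below. The smallest p-values belonged to Prim1, the primase subunit, at 2.55 ± 1.09 CPM (WT) and 4.90 ± 1.26 CPM (KO), and to Gins1, a subunit of the GINS complex, at 0.496 ± 0.234 and 1.39 ± 0.617 CPM (SD, n = 3 each); neither passed. Of 31 cyclins, kinases, inhibitors and E2F or DREAM genes, 30 were tested, of which 1 was lower and 3 were higher in KO by the same unadjusted threshold, against 3.06% and 2.71% of all genes tested. The list's median log2 fold change was 0.07. The lower gene was Cdc25a, the phosphatase that activates Cdk2, at 8.41 ± 1.81 CPM (WT) and 4.43 ± 0.962 CPM (KO). The smallest p of the higher genes was that of Ccnd3, a D-type cyclin, at 139 ± 24.0 CPM (WT) and 187 ± 23.4 CPM (KO) (SD, n = 3 each). The others, named after their values were seen, were the Cdk4 and Cdk6 inhibitors Cdkn2b, at 49.5 ± 13.1 and 79.5 ± 21.1 CPM, and Cdkn2d, at 3.41 ± 0.348 and 5.83 ± 0.349 CPM. All 4 had an edgeR adjusted p of 0.834.

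Mki67 was the mitotic gene with the highest level and the only one of its group with an unadjusted p under 0.05. Mki67 (ENSMUSG00000031004, chr7:135689784-135716361, minus strand) encodes Ki-67, a protein that coats mitotic chromosomes and serves as a marker of cycling cells. It was at 57.4, 49.6 and 61.7 CPM in WT 1, 2 and 3 and at 32.2, 23.6 and 48.9 CPM in KO 1, 2 and 3. The groups did not overlap, but KO 3 lay just under WT 2. The means were 56.2 ± 6.10 and 34.9 ± 12.8 CPM (SD, n = 3 each), a log2 fold change of -0.72 ± 0.23 (SE) with an edgeR adjusted p of 0.834, and leaving out each library in turn gave -1.03 to -0.50. The summed resident cDC1 markers were also lower in KO with no overlap. So were 2 of the 5 taken singly, against 5.19% of all genes tested. By an unadjusted p under 0.05 (edgeR), 4 of the 5 were lower, against 3.06% of all genes tested. Of 7 markers of plasmacytoid dendritic cells, 6 were tested with a median log2 fold change of -1.05. Siglech (-2.32 ± 0.78) and Ly6d (-1.61 ± 0.63, SE) were lower at an unadjusted p under 0.05 (edgeR), against 3.06% of all genes tested. Both had an edgeR adjusted p of 0.834. The 7 markers, mostly Bst2 and Tcf4, summed to 111, 152 and 131 CPM in WT and 122, 153 and 171 CPM in KO. The part of resident, mature or plasmacytoid markers in the values of Tk1 and Mki67 was not tested.

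The remaining mitotic genes were low, and none of them reached an unadjusted p under 0.05. Of the 21 mitotic genes tested, 16 had a mean under 5 CPM, and 3 counts, the limit that a count of 0 allows, correspond to 0.159 to 0.264 CPM. The median log2 fold change was 0.11, with 13 above 0 and 8 below and a range of -0.74 to 1.45, and without Mki67 it was 0.13. Its sign depended on single libraries: it was -0.09 without WT 1, -0.15 without WT 3 and -0.07 without KO 3, and 0.30 without WT 2 and 0.27 without KO 1. The SEs had a median of 0.53, against 0.23 for S phase genes and for all genes tested.

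The kinase and cyclins that start mitosis varied more between libraries than between genotypes. Cdk1, the mitotic kinase, was at 9.29, 12.3 and 6.72 CPM in WT and 7.39, 10.7 and 9.53 CPM in KO. Ccna2, cyclin A2, was at 2.47, 3.31 and 0.529 CPM in WT and 0, 6.25 and 6.35 CPM in KO, from 45, 49 and 10 counts in WT and 0, 107 and 72 counts in KO. Its KO libraries thus held both the lowest and the highest values, and exons of Exosc9 on the other strand overlap 12.5% of it. Ccnb1, cyclin B1, was at 1.10, 2.71 and 1.22 CPM in WT and 0.507, 4.44 and 3.09 CPM in KO. Ccnb2, cyclin B2, was at 0.220, 5.61 and 0.318 CPM in WT and 0, 2.69 and 3.53 CPM in KO, from 4, 83 and 6 counts in WT and 0, 46 and 40 counts in KO. For Ccnb2, WT 2, KO 2 and KO 3 were high and WT 1, WT 3 and KO 1 were at or near 0. The log2 fold changes of Ccna2, Ccnb1 and Ccnb2 were 1.06 ± 0.89, 0.78 ± 0.66 and 0.16 ± 1.2 (SE), so the errors were of similar size to the differences or larger.

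Neither checkpoint kinase of the set passed the test. Bub1, a kinase of the spindle checkpoint, was at 1.26, 1.62 and 0 CPM in WT and 2.39, 2.57 and 2.12 CPM in KO, from 23, 24 and 0 counts and 33, 44 and 24 counts. It did not overlap between the groups, and it is named here after its values were seen, with a log2 fold change of 1.38 ± 0.70 (SE). Bub1b, which encodes BubR1, was at 6.48, 10.5 and 7.73 CPM in WT and 2.17, 7.24 and 4.67 CPM in KO, with a fitted log2 fold change of -0.74 ± 0.40 (SE), with KO 2 above WT 1. Neither had an unadjusted p under 0.05. Cdc20, the activator of the anaphase-promoting complex, was at 1.68 to 3.68 CPM over the 6 libraries. Ube2c, the ubiquitin-conjugating enzyme of that complex, was at 0.495, 6.29 and 0 CPM in WT and 0.869, 1.75 and 1.06 CPM in KO, with WT 2 alone high, and exons of Tnnc2 on the other strand overlap 22.8% of it.

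The kinases and motors of the spindle were at a few CPM in each group. Aurka and Aurkb, the Aurora kinases of the spindle poles and the centromere, were at 3.91 to 6.56 and 1.43 to 4.87 CPM, and Birc5 (survivin), a partner of Aurkb, at 0.797 to 3.52 CPM. Plk1, a kinase of mitotic entry, was at 0.769, 1.49 and 0.741 CPM in WT and 1.96, 1.17 and 3.53 CPM in KO, with KO 2 inside the WT range. Kif11, the motor that separates the spindle poles, was at 0, 2.10 and 0.953 CPM in WT and 0.724, 4.09 and 2.73 CPM in KO. Kif20a, a motor of cytokinesis, was at 1.30 to 4.23 CPM, and exons of Cdc23 on the other strand overlap 29.3% of it. The spindle proteins Tpx2, Nusap1 and Stmn1, the last a microtubule destabiliser, were at 3.91 to 6.00, 1.38 to 6.22 and 1.96 to 9.87 CPM. Cenpe, a kinetochore motor, was at 2.22 to 6.59 CPM, and Cenpf, a kinetochore protein, at 0, 2.10 and 0 CPM in WT and 0, 0.876 and 2.73 CPM in KO. Hmmr, a spindle protein and the gene with the lowest mean of its group, was at 0, 2.98 and 0.0529 CPM in WT and 0.435, 1.81 and 0 CPM in KO. Top2a, the topoisomerase that untangles sister chromatids, was at 13.5, 21 and 12.2 CPM in WT and 10.1, 14.6 and 23.5 CPM in KO and so overlapped between the groups, unlike Mki67.

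**Figure D4:**
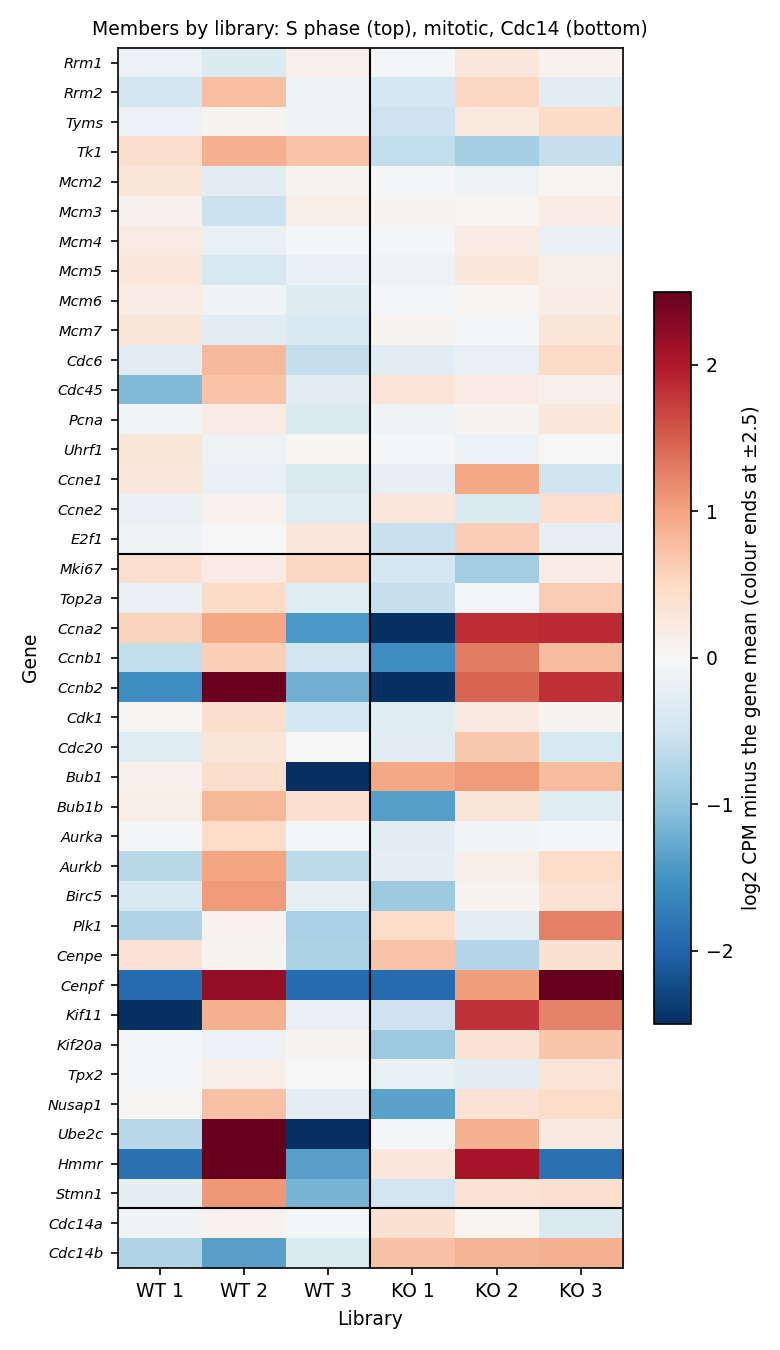
Log2 CPM minus the gene's mean over the 6 libraries (colour scale ending at ±2.5) for the 41 genes in rows, S phase at the top, then mitotic and Cdc14, with libraries in columns. The 21 mitotic genes tested average 0.80 in WT 2, -0.73 in WT 3 and -0.76 in KO 1, without Hmmr, which is drawn but was not tested. The S phase rows average between -0.13 and 0.11 in each library.

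Averaged together, the mitotic genes showed a pattern across libraries that did not follow the genotype, though not every gene shared it. Their centred log2 CPM (each gene's log2 CPM minus its own mean) was averaged over the 21 genes tested. The mean was -0.43, 0.80 and -0.73 in WT 1, 2 and 3 and -0.76, 0.46 and 0.66 in KO 1, 2 and 3, with a within-group SD of 0.79. Hmmr, left out of that mean, was at -1.86, 2.74 and -1.36 in WT and 0.28, 2.06 and -1.86 in KO. Mki67, the mitotic gene with the highest level, differed from the mean, at 0.41, 0.20 and 0.51 in WT and -0.43, -0.87 and 0.18 in KO. A mean level under 5 CPM held for 16 of the 21 genes and for 6 of the 17 S phase genes. Some of the widest deviations stood at counts of 0, among them -3.8 for Ccna2 in KO 1 and -3.35 for Bub1 in WT 3. For the S phase genes the same mean was 0.00, 0.06 and -0.10 in WT and -0.13, 0.11 and 0.06 in KO, with a within-group SD of 0.10. Single S phase genes varied more, from -1.1 (Cdc45 in WT 1) to 0.97 (Ccne1 in KO 2). In WT 2, Rrm2, Cdc6 and Cdc45 were at 0.76, 0.82 and 0.71, while the MCM subunits ran from -0.53 (Mcm3) to -0.08 (Mcm6), so opposite deviations are averaged in that mean. WT 2 was the highest library for 10 of the 22 mitotic genes (45.5%), against 18.4% of all genes, and KO 1 the lowest for 9 of 22 (40.9%), against 14.3%. Counts of 0 occurred for 3 mitotic genes in each of WT 1, WT 3 and KO 1, for 1 in KO 3 and for none in WT 2 and KO 2. The median gene of the mitotic group was at 2.14, 4.50 and 1.72 CPM in WT and 1.92, 3.80 and 3.88 CPM in KO. The summed level of 8 B cell markers, among them Ms4a1 and Cd79a and none of them at 0 in all libraries, was 22.6, 40.0 and 21.3 CPM in WT and 12.9, 38.1 and 37.0 CPM in KO. That puts the libraries in the order of the mitotic mean over the genes tested except that KO 2 and KO 3 change places. WT 3 and KO 1 lay close in that mean (-0.73 and -0.76), and the median mitotic gene was lowest in WT 3 (1.72 CPM, against 1.92 CPM in KO 1). The part of the B cell markers in the pattern was not tested. Without WT 2 the genes of the set at an unadjusted p under 0.05 were 7, with Bub1, Ccnb2, Cenpf and Kif11 added on the higher side. Of all 13155 genes then tested, 2.93% were higher and 3.53% lower by that p. Without KO 1 they were 6, with Ccna2, Ccnb1 and Kif11 added on the higher side, but of all 13173 genes then tested 6.49% were higher and 5.81% lower.

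**Figure D5:**
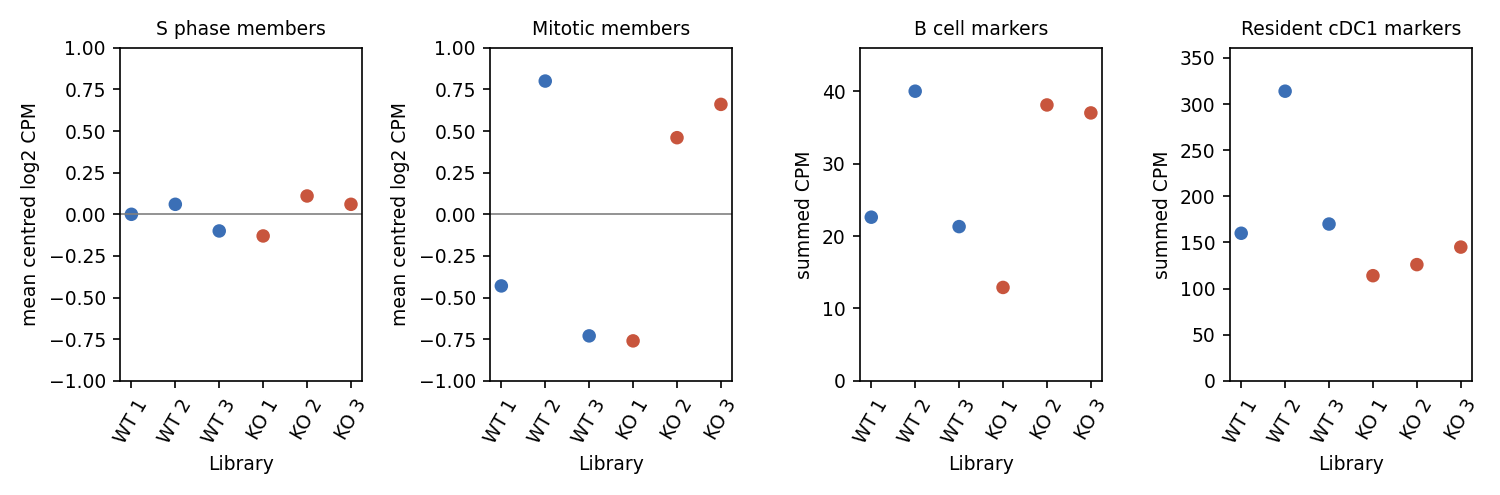
From left to right, the mean centred log2 CPM of the S phase genes and of the mitotic genes and the summed CPM of the B cell and resident cDC1 markers, 1 point per library, WT in blue and KO in red. The mean of the 21 mitotic genes tested and the B cell sum are both highest in WT 2 and lowest in KO 1. The S phase mean stays within -0.13 to 0.11, while single S phase genes vary more. The summed resident cDC1 markers show no KO library that reaches the lowest WT library.

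WT 2, KO 2 and KO 3 were also the 3 highest libraries for the cDC1 and the plasmacytoid sums, and for none of the lists below did the sums follow the order of the mitotic mean in full. Markers of T cells (10 genes) summed to 46.5 to 74.3 CPM, of NK cells (7) to 8.52 to 12.8 CPM, and of cDC2s (8) to 223 to 297 CPM. The cDC2 sums were 260, 297 and 223 CPM in WT and 233, 252 and 295 CPM in KO. WT 2 and KO 3 were thus highest and WT 3 and KO 1 lowest, but WT 1 lay above KO 2. Monocyte and macrophage markers (12) summed to 175 to 692 CPM, with KO 3 highest, plasma cell markers (6) to 113 to 186 CPM with Tnfrsf17 at 0, neutrophil markers (7) to 0.676 to 8.73 CPM with Mpo at 0, and erythroid markers (6) to 3.18 to 178 CPM.

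Mitotic genes outside the set included 4 with an unadjusted p under 0.05, all lower in KO, among 48 tested of 54, against 3.06% of all genes tested. The median log2 fold change was -0.05, with 19 above 0 and 29 below. Espl1, which encodes separase, the protease that opens cohesin at anaphase, was at 12.4, 9.20 and 15.4 CPM in WT and 5.65, 7.42 and 8.03 CPM in KO, with a fitted log2 fold change of -0.83 ± 0.29 (SE). Smc2, a core subunit of condensin, which compacts chromosomes, was at 17.1, 19.6 and 23.8 CPM in WT and 15.6, 11.9 and 10.8 CPM in KO, with a fitted log2 fold change of -0.66 ± 0.23 (SE). The others, named after their values were seen, were the condensin subunit Ncapd2, at 23.8 ± 3.87 and 16.6 ± 2.49 CPM, and Foxm1, a transcription factor of mitotic genes, at 3.54 ± 1.79 and 1.38 ± 0.919 CPM (SD, n = 3 each). All 4 had an edgeR adjusted p of 0.834. The remaining subunits of condensin I, also named after their values were seen, had log2 fold changes of -0.07 ± 0.17 for Smc4, -0.04 ± 0.50 for Ncapg and 0.08 ± 0.60 for Ncaph (SE). In this list too WT 2 was often the highest library, for 23 of 54 genes (42.6%), against 18.4% of all genes tested. Of 19 genes of the anaphase-promoting complex, its regulators and cohesin, all tested, the unadjusted threshold was passed by 0 lower and 1 higher gene, against 3.06% and 2.71% of all genes tested. The list had a median log2 fold change of 0.02. The higher gene was Anapc11, the RING subunit of the complex, at 30.4 ± 3.06 CPM (WT) and 41.7 ± 10.1 CPM (KO). Smc1a of cohesin, with the next smallest p, was at 81.8 ± 11.9 and 69.1 ± 7.33 CPM (SD, n = 3 each).

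Of the paralogous phosphatases, Cdc14b had the smallest p of the set and the groups overlapped for Cdc14a. Both belong to a family that in budding yeast reverses Cdk1 phosphorylation at mitotic exit, and in mammals it has been tied to DNA repair and cilia. Cdc14b (ENSMUSG00000033102, chr13:64189268-64275290, minus strand) was at 8.79, 5.82 and 11.7 CPM in WT 1, 2 and 3 and at 25.0, 27.0 and 27.7 CPM in KO 1, 2 and 3, from 160, 86 and 221 counts and 345, 462 and 314 counts. Every KO library was above every WT library, and the KO values lay close together. The means were 8.77 ± 2.94 and 26.6 ± 1.40 CPM (SD, n = 3 each), a log2 fold change of 1.57 ± 0.25 (SE) with an edgeR adjusted p of 0.251, the smallest of the set. DESeq2 gave an adjusted p of 0.000175 and edgeR without a filter on low counts 0.0217, so the call depends on the tool and the filter. Leaving out each library in turn gave 1.36 to 1.84 with edgeR and no adjusted p under 0.0891. Cdc14a was at 66.9, 75.3 and 69.1 CPM in WT and 93.1, 73.9 and 55.6 CPM in KO, where KO held both the highest and the lowest value, and its log2 fold change was 0.08 ± 0.18 (SE). The difference between the paralogs was not itself tested. Per kb of exon they stood at 5.92 CPM for Cdc14a and 1.92 CPM for Cdc14b, with ranges of 4.55 to 7.63 and 0.634 to 3.02 CPM that did not overlap. The paralogs are similar in sequence and the treatment of reads that match both was not given in the sources used here. An exon of Aaed1 on the same strand overlaps 0.1% of Cdc14b.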

How the data were processed

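RNA from sorted mLN cDC1s was sequenced as 150-base pairs, per the labels' protocols. The authors' deposited values are raw read counts, 1 row per Ensembl gene and 6 libraries, with no normalization. Alignment and counting tools were HISAT2 2.0.5 and HTSeq on mm10, per the submitters' processing notes; the annotation release, strand setting and handling of multi-mapped reads were not given in the sources used here. GENCODE M21 named 32235 of 32285 features (99.8%), and 13875 features were at 0 in all libraries. Columns were matched to samples by the library label in the descriptions.

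Genes kept by filterByExpr (12568) were TMM-scaled and compared by edgeR 4.0.16 (estimateDisp, glmQLFit with robust estimation and legacy off, glmQLFTest) under R 4.3.3 in a model with genotype only and Benjamini-Hochberg adjustment at 0.05. An SE is the log2 fold change divided by the square root of F. The biological coefficient of variation was 30.1%. Pairs of libraries within a group differed by 20.8 to 43.3 times the sampling noise (chi-square per degree of freedom), so no library was a duplicate. CPM per kb divides by merged exon length. The test was checked on simulated counts.

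The genes and lists were chosen with earlier results of these data known, so their counts are descriptions. Values per library are given for genes with an unadjusted p under 0.05, the highest and lowest gene of each class, and the MCM, cyclin, ribonucleotide reductase and Cdc14 families; each other list is named by its 2 smallest p-values. Further values per library or gene were picked to show the spread after they were seen. Promoters came from RefSeq (GRCm38.p6). The alternatives tried were upper-quartile and RLE scaling, no filter, 1 CPM in 3 libraries, DESeq2 1.42.0, limma-voom (limma 3.58.1), the replicate number as a block, each library left out, and, added after seeing the data, edgeR's legacy setting. No library was left out of the values in the text unless stated. From the marker lists, 1 gene each of the B cell and erythroid lists is not reported here and was left out of the sums.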

Additional observations from a re-analysis of the deposited data

How the results depend on the processing

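With the settings used for the report 0 genes of the set passed the adjusted threshold and 3 had an unadjusted p under 0.05, namely Tk1, Mki67 and Cdc14b, which were among those at that p under every alternative. Past the adjusted threshold were 1 gene (Cdc14b) without a filter and 2 (Cdc14b and Tk1) with DESeq2, and 0 to 0 when each library was left out. At an unadjusted p the count was 3 to 7 when each library was left out. The S phase median of 0.15 was 0.14 to 0.15 under the other scalings, filters and tests, and 0.05 to 0.18 when each library was left out. The mitotic median of 0.11 was 0.03 with DESeq2 and 0.04 with the legacy setting, and -0.15 to 0.30 when each library was left out. The replicate numbers did not pair the libraries (correlations of same-numbered deviations from -0.00126 to 0.0281), and with the replicate block 4 genes had an unadjusted p under 0.05 (Bub1b was added), the S phase median was 0.15 and the mitotic median 0.01. Signs turned with limma-voom for Cdc6 (0.07), Rrm2 (0.01) and Ccna2 (-0.38). Signs also turned in at least 1 fit without a library for Cdc6 (-0.34 to 0.46), Mcm2 (-0.23 to 0.07), Mcm3 (-0.03 to 0.27), Rrm2 (-0.52 to 0.32), Ccnb2 (-0.41 to 2.88), Ccne1 (-0.29 to 0.61) and Cdc14a (-0.11 to 0.24), all log2 fold changes; the cause was not tested. Over all genes, an unadjusted p under 0.05 was reached by 725 genes, by 942 with the replicate block, by 629 with the legacy setting, and by 1621 without KO 1, 376 without KO 2 and 444 without KO 3. Past the adjusted threshold over all genes were 10 with DESeq2, 3 without a filter, 7 without KO 1 and 0 with limma-voom. It was also passed by 1 gene without WT 3 and by 1 without KO 2. Of the mitotic genes tested, 16 of 21 had a mean under 5 CPM, and 3 counts correspond to 0.159 to 0.264 CPM. Among the 22 mitotic genes, those at 0 numbered 1 in KO 3 (11755944 counts) and 3 in KO 1 (13603695 counts). They numbered 0 in WT 2 (14949229) and KO 2 (17434247) and 3 in WT 1 (17826793) and WT 3 (18450678). The part of depth in the zeros was not tested.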
